A study of Mus musculus with 8 samples.

Results

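The genes described here mark skeletal muscle that has lost, or has not yet gained, its nerve supply, or that is wasting. They are the acetylcholine receptor subunits *Chrna1*, *Chrnb1*, *Chrnd* and *Chrng*, the receptor-clustering kinase *Musk*, the ubiquitin ligases *Trim63* and *Fbxo32*, and the developmental myosin heavy chains *Myh3* and *Myh8*. These 9 of the 55291 genes in the deposited count table were picked by symbol, with the genotype contrast of the same counts already known, so their genotype differences are given as a description and nothing is read from a test of them. The table holds RNA-seq read pairs per gene from the lumbar spinal cord of 8 male SOD1G93A mice on a C57BL/6 background, 1 library per mouse. Of these, 4 were Agerfl/fl Cx3cr1Cre/+ (the *Ager*-deleted group) and 4 were Ager+/+ Cx3cr1Cre/+ (the Cre-expressing controls). Values are given in the mouse order E1776, E5231, E5248, E5568 for the first group, followed by E5386, E5642, E6578, E6732 for the second. All 8 mice carried the human mutant SOD1 transgene, which models amyotrophic lateral sclerosis (ALS), and a tamoxifen-inducible Cre knocked into *Cx3cr1*, which leaves them with a single working copy of that gene. Tamoxifen (0.2 µg per injection) was given to both groups at the age of 12 weeks. Since Cre acts in *Cx3cr1*-expressing cells, mainly microglia and other myeloid cells, *Ager*, which encodes the receptor RAGE, was targeted in those cells alone in the Agerfl/fl mice and stays in all other cells of the cord. The labels give an age of 120 days, whereas the study's text places the tissue at end-stage.

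At an innervated neuromuscular junction, agrin from the nerve acts through MUSK to gather acetylcholine receptors under the nerve ending, and the adult receptor holds an epsilon subunit (*Chrne*) in place of the fetal gamma subunit (*Chrng*). When the nerve is lost, muscle fibers express *Chrng* again along with the other subunits, *Musk* and the factors *Myog* and *Myod1*, and the atrophy ligases *Trim63* (MuRF1) and *Fbxo32* (atrogin-1) tag sarcomere and other proteins for degradation. *Myh3* and *Myh8* are the embryonic and perinatal myosins of growing and regenerating fibers. The spinal cord itself contains no skeletal muscle, although muscle surrounds the spinal column. *Chrnb1* and *Fbxo32* are also transcribed outside muscle.

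Counts on genes ranged from 31148047 to 40324897 per mouse, and the detection floor of 3 counts lies at 0.0729 to 0.0975 CPM (counts scaled to a common library size after TMM normalization). The floors and exact intervals given here reflect counting error alone. The 8 libraries are distinct, as the chi-square per degree of freedom was at least 17.4 in each of 28 pairs of mice. *Ager* read 0.889, 1.51, 1.02 and 1.34 CPM in the *Ager*-deleted mice and 1.53, 2.22, 2.18 and 2.41 CPM in the controls, so the groups did not overlap. The difference in mean log2(CPM + 1) was 0.49 (exact two-sided permutation test over 70 assignments, p = 0.0286, the smallest p that 4 mice against 4 can give). Neuronal, motor neuron, oligodendrocyte, astrocyte and microglial markers were present in every mouse, and their summed levels, like those of Schwann cell markers, lay in E5386 and E5642 within the range of the other 6. The libraries of controls E5386 and E5642 stood apart in skeletal muscle RNA. Summed over 25 adult muscle genes, they held 1441 and 2129 CPM, against 147 to 171 CPM in the other 6 mice (147 to 171 CPM in the *Ager*-deleted mice and 154 to 2129 CPM across the controls), and each of the 25 genes was highest in these 2 mice. Of the 25, only *Tnnc2* was at 0 in some mouse. *Pygm* alone read 101 to 139 CPM in the other 6 mice and 158 and 173 CPM in E5386 and E5642. Most of the sum in those 6 mice was thus *Pygm*, and the sums understate how far most of the other genes differed. A 6-gene adipocyte list was at 141 CPM in E5386 and 6.98 CPM in E5642, against 0.965 to 5.34 CPM in the other 6. Fibroblast markers were lowest in E5386 (146 CPM) and highest in E5642 (606 CPM), with the others between 247 and 597 CPM. The source of this RNA was not tested, and log2 fold changes between genotypes are also given without E5386 and E5642. These mice were set aside because of their adult muscle genes, so smaller differences of those genes without them follow from that choice.

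By position on GRCm38 (GENCODE M21), *Chrnd* (chromosome 1, 87190607 to 87200070) and *Chrng* (chromosome 1, 87204657 to 87212694) are neighbors on the plus strand, 4586 bases apart. *Chrna1* lies on chromosome 2 from 73563215 to 73580338 and *Chrnb1* on chromosome 11 from 69784036 to 69795943, both on the minus strand. *Musk* (58285960 to 58374303) and *Trim63* (134315120 to 134329629) are both on the plus strand of chromosome 4, far from each other. *Fbxo32* lies on the minus strand of chromosome 15 from 58175879 to 58214932 and overlaps the antisense gene *Gm15943*, which had at most 12 counts in any mouse. *Myh3* (67078300 to 67102291) and *Myh8* (67277124 to 67308634) belong to the myosin cluster on the plus strand of chromosome 11, where *Myh8* begins 16677 bases after the end of the adult fast myosin *Myh4*. The myosin chains resemble each other closely, so a few read pairs of abundant adult chains could have been counted on *Myh3* or *Myh8*. Multimapping and strand settings of the counting are not given in the sources used here.

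RefSeq promoter windows (250 bases before the annotated start, GRCm38.p6) were found for 7 of the 9 genes. Those of *Chrna1*, *Chrng*, *Musk* and *Trim63* are printed 5′ to 3′ because the results turn on these genes, and that of *Ckm*, the muscle creatine kinase, as the adult muscle comparator. Capitals mark each E-box (CANNTG, both strands), the letters bound by muscle regulatory factors such as MYOD1 and MYOG.
Chrna1 chr2:73580339-73580588: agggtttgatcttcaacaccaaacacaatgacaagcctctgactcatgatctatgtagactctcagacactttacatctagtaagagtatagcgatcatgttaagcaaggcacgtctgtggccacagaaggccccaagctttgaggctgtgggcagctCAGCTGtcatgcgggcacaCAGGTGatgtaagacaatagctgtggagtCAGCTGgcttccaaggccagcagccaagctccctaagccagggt
Chrng chr1:87205561-87205810: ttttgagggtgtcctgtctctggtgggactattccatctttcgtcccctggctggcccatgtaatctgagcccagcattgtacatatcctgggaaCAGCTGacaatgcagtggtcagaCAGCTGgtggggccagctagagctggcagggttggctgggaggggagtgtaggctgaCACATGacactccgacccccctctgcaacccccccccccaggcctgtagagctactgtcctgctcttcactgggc
Musk chr4:58285712-58285961: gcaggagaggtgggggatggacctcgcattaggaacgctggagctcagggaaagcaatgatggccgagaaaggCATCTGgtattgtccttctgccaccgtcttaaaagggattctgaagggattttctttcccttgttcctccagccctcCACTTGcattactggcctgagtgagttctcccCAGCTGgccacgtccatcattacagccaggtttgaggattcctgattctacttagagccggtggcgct
Trim63 chr4:134314870-134315119: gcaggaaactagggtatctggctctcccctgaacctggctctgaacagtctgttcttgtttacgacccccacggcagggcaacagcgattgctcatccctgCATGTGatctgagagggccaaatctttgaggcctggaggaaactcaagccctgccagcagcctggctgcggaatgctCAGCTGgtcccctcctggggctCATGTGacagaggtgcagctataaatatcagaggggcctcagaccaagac
Ckm chr7:19410844-19411093: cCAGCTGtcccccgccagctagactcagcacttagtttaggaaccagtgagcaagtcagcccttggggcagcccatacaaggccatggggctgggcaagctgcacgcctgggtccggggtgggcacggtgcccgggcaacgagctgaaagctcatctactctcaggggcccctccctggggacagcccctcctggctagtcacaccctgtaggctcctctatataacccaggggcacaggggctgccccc
The E-boxes begin at -92, -73 and -44 relative to the annotated start in *Chrna1*, at -155, -132 and -75 in *Chrng*, at -177, -100 and -68 in *Musk*, at -149, -72 and -50 in *Trim63* and at -249 in *Ckm*. The unprinted window of *Chrnb1* also held 3, and those of *Myh3* and *Myh8* held 1 each. Of 32851 windows of this length, 66.2% held an E-box and 12.2% held 3 or more. CAGCTG, a form of the E-box, occurred at 2 places in *Chrna1* and *Chrng*, at 1 in *Musk*, *Trim63* and *Ckm*, and in 13.0% of all windows. TATAAA was found in *Chrnb1*, *Trim63*, *Myh3* and *Myh8* (12.4% of all windows). The N-box CCGGAA was in none of the 7, although it was found in the window of *Chrne* and in 12.0% of all. A match of these letters is a description of the window and no evidence of binding.

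Levels of the 9 genes spanned a wide range in this tissue. Per kilobase of exon, *Fbxo32* averaged 6.07 ± 1.19 CPM per kb (SD, n = 4) in the *Ager*-deleted mice and *Chrnb1* 1.32 ± 0.186, both clear of the next gene in every mouse. *Chrna1* (0.146), *Trim63* (0.114), *Musk* (0.0740) and *Myh3* (0.0669 CPM per kb) followed, and among these 4 each overlapped the next in range, while *Myh3* lay clear of the gene after it. *Myh8* (0.00692) and *Chrng* (0.00325 CPM per kb) were lower still, with ranges that overlapped, and *Chrnd* was at 0. In the controls the order was *Fbxo32* (8.74), *Trim63* (2.66), *Chrnb1* (1.66), *Chrna1* (0.280), *Musk* (0.192), *Myh3* (0.0988), *Chrnd* (0.0834), *Chrng* (0.0200) and *Myh8* (0.0182 CPM per kb). In that order *Chrnb1* and *Chrna1* did not overlap, nor did *Musk* and *Myh3*, whereas all other neighbors overlapped. The second place of *Trim63* in the controls rests on E5642, as it exceeded *Chrnb1* in 1 of 4 controls.

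**Figure D1:**
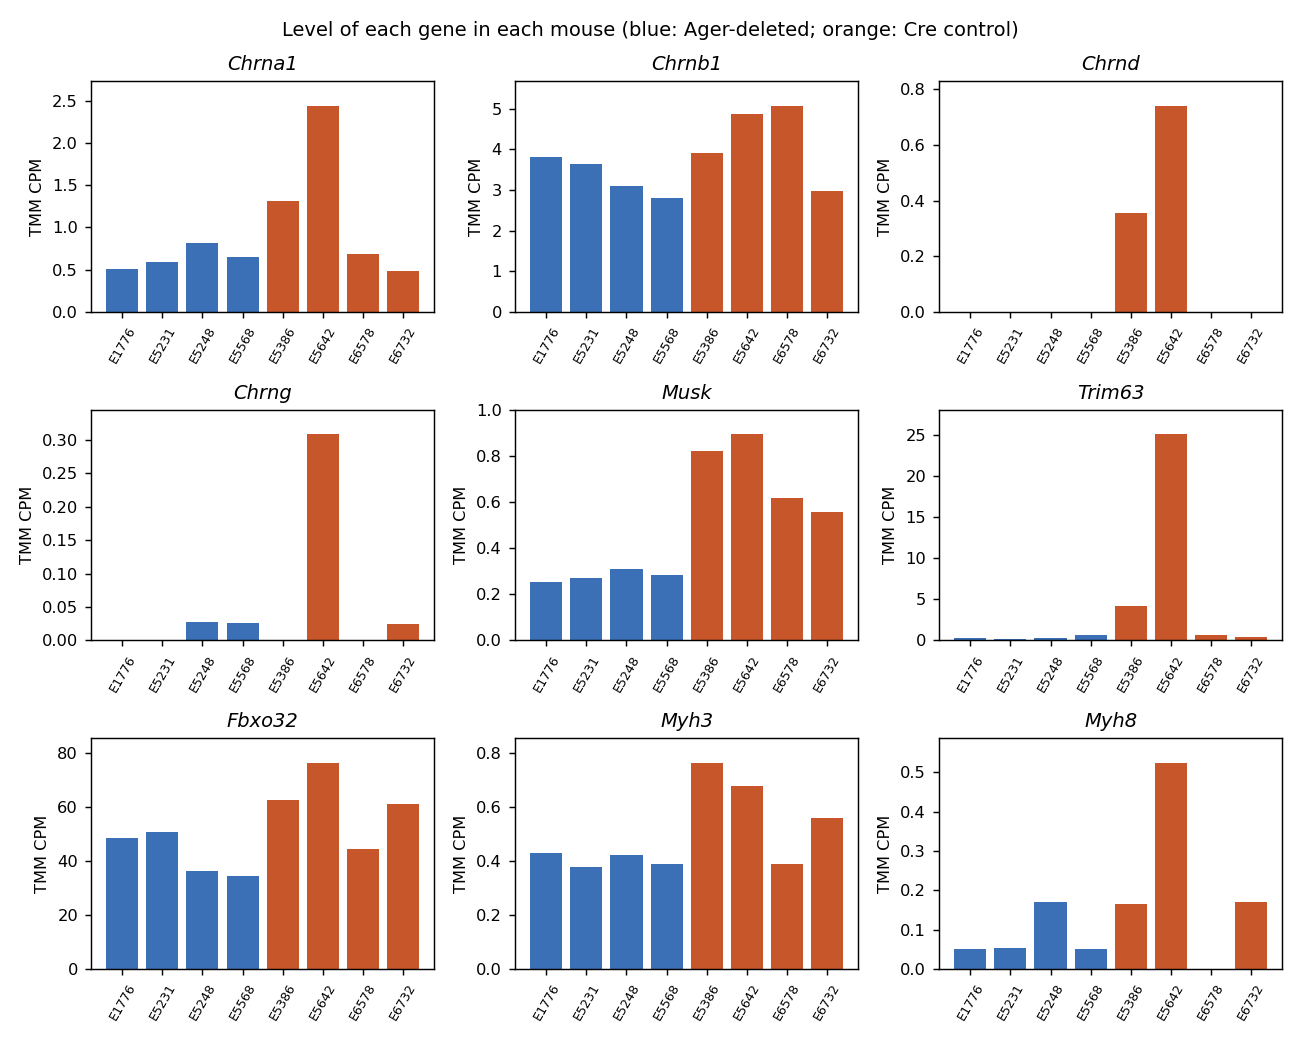
Level of each of the 9 genes in each mouse, as TMM-scaled CPM on an axis that starts at 0, with *Ager*-deleted mice in blue and Cre-expressing controls in orange. *Trim63* reaches 25.1 CPM in E5642 and 4.13 CPM in E5386, *Chrnd* has a bar in these mice alone, and *Musk* is higher in each of the 4 controls than in any *Ager*-deleted mouse.

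Among the receptor subunits, *Chrna1*, which forms the acetylcholine binding sites, was high in 2 controls and alike in the other mice. It had 20, 22, 29 and 25 counts in the *Ager*-deleted mice (0.508, 0.593, 0.818 and 0.646 CPM). In the controls it had 48, 79, 21 and 20 counts (1.31, 2.44, 0.683 and 0.486 CPM). E5386 and E5642 stood above every *Ager*-deleted mouse, whereas E6578 fell within their range and E6732 just below it. Group means were 0.641 ± 0.131 and 1.23 ± 0.880 CPM (SD, n = 4). On the log2 scale, controls over *Ager*-deleted mice, the fold change was 0.93 (SE 0.45), which became -0.14 (SE 0.32) without E5386 and E5642.

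*Chrnd*, the delta subunit, was counted in E5386 (13 counts, 0.356 CPM) and E5642 (24 counts, 0.741 CPM) and had 0 counts in the other 6 mice, each of which allows a level of up to its 3-count floor. Pooled over the 4 controls, it was at least 13.2-fold higher than the floor of 3 counts over the 4 *Ager*-deleted mice (0.263 against 0.0199 CPM), a bound that E5386 and E5642 set alone. *Chrng*, the fetal gamma subunit next to it on chromosome 1, had 10 counts in E5642 (0.309 CPM, exact 95% interval 0.148 to 0.568) and 0 or 1 count in each of the other 7 mice. E5386, with the second largest amount of muscle RNA, was among those at 0, for which the upper limit of the exact interval was 0.101 CPM. Of the counts on *Chrng* and *Chrne* together, *Chrng* took 10 of 15 in E5642 (66.7%, exact Clopper-Pearson 95% interval 38.4 to 88.2%) and 0 of 7 in E5386 (upper limit 41.0%). The other 6 mice had 3 to 5 such counts each, too few to place the share. *Chrne* itself had 5, 4, 2 and 2 counts in the *Ager*-deleted mice and 7, 5, 3 and 4 in the controls, with the groups overlapping.

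*Chrnb1*, the beta subunit, was well above the floor everywhere and changed little with muscle content. It read 3.81, 3.64, 3.10 and 2.79 CPM in the *Ager*-deleted mice and 3.91, 4.88, 5.07 and 2.97 CPM in the controls. Its highest value was in E6578, a control with 13 *Ckm* counts, and E6732 lay within the *Ager*-deleted range. The log2 fold change was 0.33 (SE 0.19) over 8 mice and 0.26 (SE 0.24) without E5386 and E5642.

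*Musk*, the kinase that gathers the receptor at the synapse, was the only one of the 9 genes without overlap between genotypes. Counts were 10, 10, 11 and 11 in the *Ager*-deleted mice and 30, 29, 19 and 23 in the controls, or 0.254, 0.270, 0.310 and 0.284 CPM against 0.820, 0.895, 0.618 and 0.559 CPM. Every control exceeded every *Ager*-deleted mouse, which was also so for 1.91% of the 19470 genes tested, while 1.97% showed the opposite order. Means were 0.280 ± 0.0240 and 0.723 ± 0.160 CPM (SD, n = 4). The log2 fold change was 1.36 (SE 0.24), and it was 1.07 (SE 0.31) without E5386 and E5642. By CPM, E5642 was highest and E5386 next for both *Musk* and *Ckm*, and E6578 departed most from a shared order. E6578 had the fewest *Ckm* counts of all mice (13) and 19 *Musk* counts, whereas E5568, with 47 *Ckm* counts, had 11. The exact 95% intervals of *Musk* in E6578 (0.372 to 0.964 CPM) and E5568 (0.142 to 0.509 CPM) overlapped. E5386 and E5642 held 106 and 162 times the median *Ckm* CPM of the other 6 mice but 2.76 and 3.01 times the median *Musk* CPM. With 10 to 30 counts per mouse, the single values are imprecise, and the exact 95% interval of the lowest control (0.355 to 0.839 CPM) overlapped that of the highest *Ager*-deleted mouse (0.155 to 0.555 CPM).

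The ligases differed from each other. *Trim63*, which encodes MuRF1, had 10, 7, 9 and 23 counts in the *Ager*-deleted mice and 151, 813, 20 and 17 in the controls. In CPM these were 0.254, 0.189, 0.254 and 0.594 against 4.13, 25.1, 0.650 and 0.413. E6732 lay within the *Ager*-deleted range and E6578 just above it, so the control mean of 7.57 ± 11.8 CPM (SD, n = 4), compared with 0.323 ± 0.184 CPM, rested mainly on a single mouse. The log2 fold change was 4.52 (SE 1.24), and 0.69 (SE 0.48) without E5386 and E5642. Of the 6 genes that passed the filter on low counts, *Trim63* stood farthest above the median of the other 6 mice, 12.4-fold in E5386 and 75.2-fold in E5642. No such fold was computed for *Chrnd*, *Chrng* and *Myh8*.

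*Fbxo32*, which encodes atrogin-1, was the most abundant of the 9 genes in every mouse and had its excess over a large level common to all mice. It read 48.3, 50.8, 36.1 and 34.4 CPM in the *Ager*-deleted mice and 62.4, 76.2, 44.5 and 60.8 CPM in the controls. Of the controls, 3 exceeded every *Ager*-deleted mouse and E6578 did not. Means were 42.4 ± 8.34 and 61.0 ± 13.0 CPM (SD, n = 4). The log2 fold change was 0.53 (SE 0.17), or 0.32 (SE 0.18) without E5386 and E5642. E6732, whose *Ckm* was at 1.92 CPM, read 60.8 CPM of *Fbxo32*, close to E5386 (62.4 CPM), whose *Ckm* was at 74.9 CPM.

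For the developmental myosins, counts were low in all mice. *Myh3* had 17, 14, 15 and 15 counts in the *Ager*-deleted mice and 28, 22, 12 and 23 in the controls (0.377 to 0.432 CPM against 0.766, 0.679, 0.390 and 0.559 CPM). E6578 lay within the *Ager*-deleted range and the other 3 controls above it, with a log2 fold change of 0.57 (SE 0.25), or 0.25 (SE 0.32) without E5386 and E5642. *Myh8* had 2, 2, 6 and 2 counts in the *Ager*-deleted mice and 6, 17, 0 and 7 in the controls, so E5642 (0.525 CPM, exact 95% interval 0.306 to 0.840) was highest and the groups overlapped.

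Of the 9 genes, 6 passed the filter on low counts, and *Chrnd*, *Chrng* and *Myh8* did not. The exact test in edgeR called 1 of these 6 (*Musk*) at an adjusted p under 0.05 and the quasi-likelihood test and DESeq2 called 0 of 6 (in each edgeR test 4 of 6 had an unadjusted p under 0.05, compared with 4.26% and 6.71% of all genes tested), where the exact test called 0.0719% of all genes tested, 0.0616% as higher in controls, and the quasi-likelihood test 0.00514%. Since the contrast chose the genes, nothing is read from these counts. E5386 and E5642 were the highest 2 mice for 6 of the 9 (*Chrna1*, *Chrnd*, *Musk*, *Trim63*, *Fbxo32* and *Myh3*), as for 3.08% of all genes tested. *Chrnd* was not among the genes tested. At least 3 controls exceeded every *Ager*-deleted mouse for *Musk*, *Chrnb1*, *Trim63*, *Fbxo32* and *Myh3*, and for 7.63% of all genes tested. In bulk RNA, a larger number of muscle fibers and more RNA of a gene per fiber cannot be told apart.

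**Figure D2:**
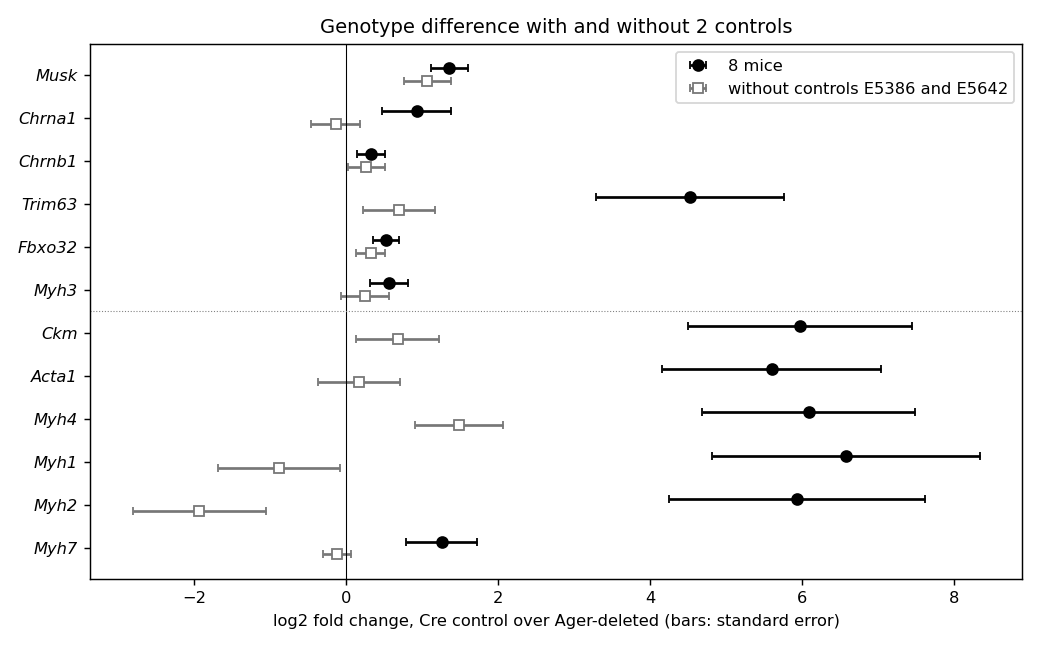
Log2 fold change of Cre-expressing controls over *Ager*-deleted mice from the quasi-likelihood fit, for the 6 genes that passed the filter (above the dotted line) and 6 adult muscle genes (below it), with bars of 1 standard error. Filled circles use 8 mice and open squares leave out controls E5386 and E5642. *Musk* moves from 1.36 to 1.07, *Trim63* from 4.52 to 0.69 and *Chrna1* from 0.93 to -0.14, while *Ckm* moves from 5.97 to 0.68.

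Most adult muscle genes used for comparison gave large genotype differences over 8 mice, and those shown here were smaller or turned in direction without E5386 and E5642. Since these genes set E5386 and E5642 apart, their fall without them was fixed by the choice of mice and nothing is read from it. *Ckm* had 16, 24, 27 and 47 counts in the *Ager*-deleted mice and 2738, 3696, 13 and 79 in the controls, with a log2 fold change of 5.97 (SE 1.47) and 0.68 (SE 0.55) without E5386 and E5642. The skeletal alpha-actin gene *Acta1* (5.60, SE 1.44), and the myosins *Myh1* (6.58, SE 1.76), *Myh2* (5.94, SE 1.69) and *Myh4* (6.09, SE 1.40) were alike over 8 mice. Without E5386 and E5642 they came to 0.17 (SE 0.54) for *Acta1*, -0.88 (SE 0.81) for *Myh1*, -1.93 (SE 0.88) for *Myh2* and 1.49 (SE 0.58) for *Myh4*. *Myh7*, the slow myosin, which took most of the myosin counts in several of the other 6 mice, went from 1.26 (SE 0.47) to -0.12 (SE 0.18). Of 21 adult muscle genes tested, the exact test called 3 as higher in controls, *Myh4* (adjusted p = 0.0105), *Ckm* (adjusted p = 0.0281) and the calcium pump gene *Atp2a1* (adjusted p = 0.0294), and none of the 21 was called without E5386 and E5642, where *Atp2a1* was at 0.55 (SE 0.58). The quasi-likelihood test in edgeR gave an adjusted p of 0.705 for each of the 3.

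Among myosin heavy chains, the balance of developmental and adult forms differed between mice. Of the counts on *Myh1*, *Myh2*, *Myh3*, *Myh4*, *Myh7* and *Myh8*, the developmental pair took 34 of 8925 in E5386 (0.381%, exact Clopper-Pearson 95% interval 0.264 to 0.532%) and 39 of 11291 in E5642 (0.345%, 0.246 to 0.472%). In the other 6 mice they took between 17 of 268 (6.34%, 3.74 to 9.96%, E5568) and 19 of 168 (11.3%, 6.95 to 17.1%, E1776), with E5231 at 7.48%, E5248 at 9.91%, E6578 at 9.09% and E6732 at 9.26%. The intervals of E5386 and E5642 overlapped each other and lay below those of all other mice. With *Myh7* left out the shares were 0.400% and 0.361% in E5386 and E5642 and 14.5 to 39.6% in the other 6. The adult chains are among the genes that set E5386 and E5642 apart, so a low share in these mice follows largely from that choice. Nothing is read from it. In counts, the developmental pair had 34 and 39 there, and 12 (E6578) to 30 (E6732) in the others. The intervals of the *Ager*-deleted mice overlapped those of controls E6578 and E6732.

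**Figure D3:**
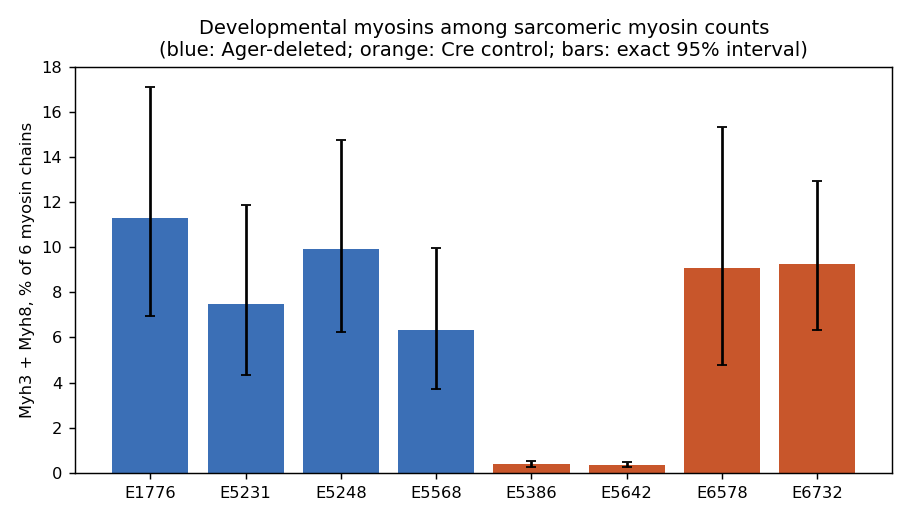
Share of *Myh3* plus *Myh8* in the summed counts of 6 sarcomeric myosin heavy chains, in percent, for each mouse (blue, *Ager*-deleted, and orange, Cre-expressing controls), with exact 95% intervals for counting error. E5386 (0.381%) and E5642 (0.345%) lie near 0 and the other 6 mice between 6.34% and 11.3%. E5386 and E5642 were set apart by adult muscle genes that include the adult chains shown here, so their low share follows largely from that choice.

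The muscle-rich controls were also compared with each other, which compares these libraries and not the conditions. E5642 held 1.52 times the *Ckm* CPM of E5386 (exact conditional 95% interval 1.450 to 1.602) and 1.56 times the *Acta1* CPM (1.52 to 1.61). Over 25 adult muscle genes the median ratio was 1.52, from 0.388 for *Myh2* to 2.68 for the fast-fiber actinin *Actn3*, with 23 above 1. *Trim63* had a ratio of 6.08 (5.10 to 7.28), above that of all 25. Among 19099 tested genes with at least 10 counts in E5386, whose median ratio was 0.997, 43 had a ratio at or above it.

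*Chrna1*, *Chrnd*, *Musk*, *Myh3*, *Chrnb1* and *Fbxo32* had ratios within the range of the 25 adult muscle genes (0.388 to 2.68). *Myh8* lay above that range on 6 and 17 counts, and *Chrng* could not be placed. The intervals of *Myh8* and *Chrng* did not exclude the ratio of *Trim63*. *Chrna1* had a ratio of 1.86 (1.28 to 2.72), *Chrnd* of 2.08 (1.02 to 4.46) and *Myh8* of 3.20 (1.20 to 9.91). For *Chrng*, with 0 counts in E5386, the lower limit was 2.53. *Musk* (1.09, 0.632 to 1.88), *Myh3* (0.887, 0.484 to 1.61) and *Chrnb1* (1.25, 0.989 to 1.58) had intervals that contained 1, and *Fbxo32* had a ratio of 1.22 (1.15 to 1.29). Expressed per kilobase as a percent of *Ckm*, *Trim63* was at 5.65% in E5386 and 22.5% in E5642, a ratio of 3.99 (3.35 to 4.78). It was 3.89 with *Acta1* as the reference and 4.27 when the median of the other 6 mice was first subtracted. *Fbxo32* relative to *Ckm* went the other way, with a ratio of 0.802 (0.757 to 0.849), but after subtraction of the median of the other 6 mice its excess was 9.02% of *Ckm* in E5386 and 11.0% in E5642. The excess of *Chrna1* was 0.621% and 1.07% of *Ckm*, that of *Chrnd* 0.425% and 0.579%, and that of *Musk* 0.544% and 0.407%. The adipocyte list (141 against 6.98 CPM) and the fibroblast list (146 against 606 CPM) also differed between the 2 libraries, and their part in these ratios was not tested. In the other 6 mice, with 13 to 79 *Ckm* counts, *Chrna1* was at 16.8 to 107% of *Ckm* per kilobase and *Musk* at 18.1 to 113%. *Myh3* was at 14.0 to 51.1% there and *Trim63* at 22.1 to 158%. The levels of these genes across mice were thus not in proportion to *Ckm*, and their source in those 6 mice was not tested.

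**Figure D4:**
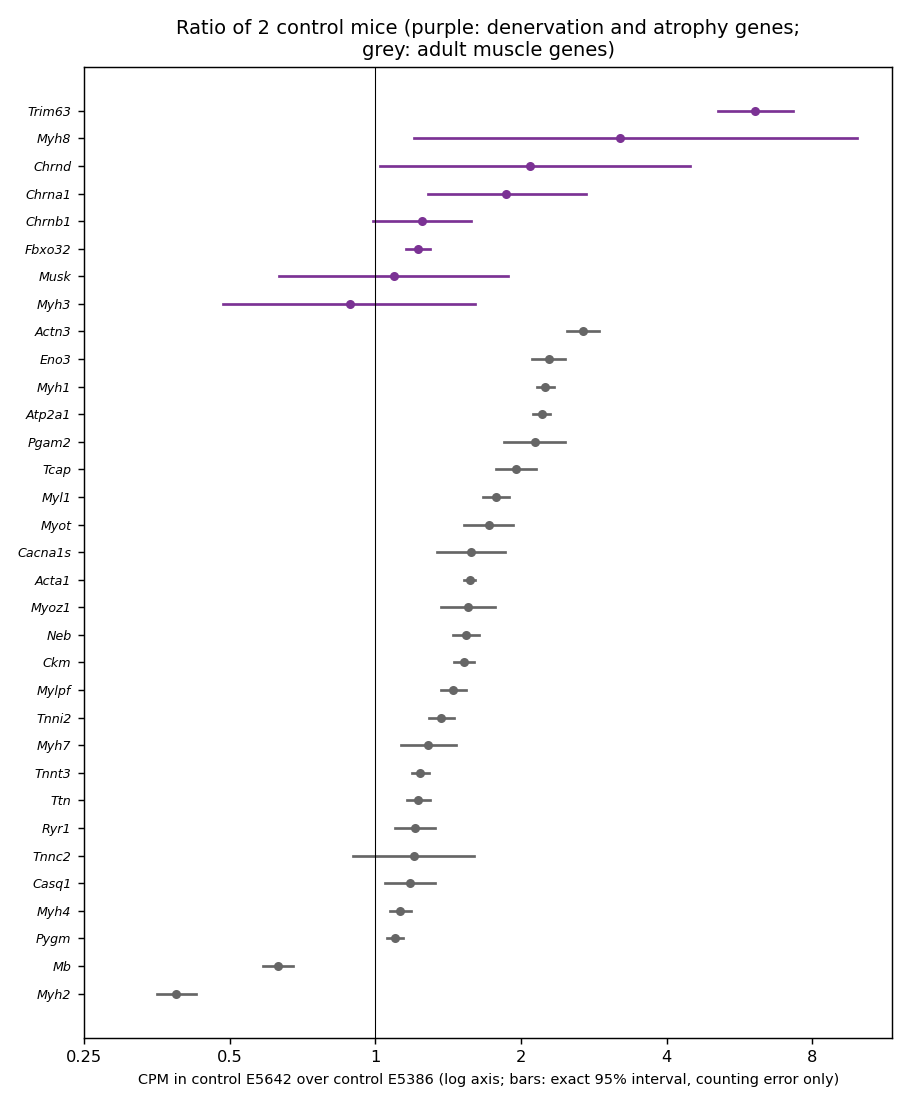
Ratio of CPM in control E5642 over control E5386 on a log axis, for 8 of the 9 denervation and atrophy genes (purple; *Chrng* has 0 counts in E5386) and 25 adult muscle genes (grey), with exact 95% intervals for counting error. *Trim63*, at 6.08, lies to the right of all adult muscle genes, whose ratios run from 0.388 to 2.68.

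Other genes of these pathways were taken from lists written with earlier results of these counts known. Several tested genes of these lists were abundant in every mouse, such as *Agrn* (165 to 230 CPM), *Ncam1* (294 to 386 CPM) and *Nedd4* (596 to 654 CPM). The medians of such lists thus need not reflect muscle. Of 64 genes tested in the 5 other lists, edgeR's exact test and quasi-likelihood test called 0 in either direction, as did DESeq2, with 7 and 8 at an unadjusted p under 0.05 in the edgeR tests (over all genes tested, 4.26% and 6.71%). With common and tagwise dispersions the exact test called 2 of them, *Scn4a* and *Sln*, and 0.401% of all genes tested. For the adult muscle genes the median log2 fold change was 4.21 (21 tested), compared with -0.01 over all genes tested, and it was 0.14 without E5386 and E5642. Junction partners (19 of 20 tested) had a median of -0.03, and of 0.07 without E5386 and E5642. *Scn4a*, the muscle sodium channel, was at 3.47 and 5.43 CPM in E5386 and E5642 and at 0.152 to 0.325 CPM in the other 6 mice, with a log2 fold change of 3.40 (SE 0.95), or 0.29 (SE 0.42) without E5386 and E5642. Over 8 mice, edgeR's exact test gave an adjusted p of 0.0867. *Dok7*, which activates MUSK from within the cell, and *Ache*, the acetylcholinesterase, had values of -0.23 (SE 0.08) each, with an adjusted p of 1 in the same test, and of -0.16 (SE 0.11) and -0.18 (SE 0.12) without E5386 and E5642. E5386 and E5642 were the highest 2 mice for 2 of the 20, *Scn4a* and *Chrne*. *Chrne* was not tested, and the share over all genes tested was 3.08%.

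Denervation-response genes (12 of 16 tested) had a median log2 fold change of 0.08, and of 0.04 without E5386 and E5642. *Sln*, which encodes the calcium pump inhibitor sarcolipin, was at 8.20 and 7.16 CPM in E5386 and E5642 and at 0.108 to 0.395 CPM elsewhere (log2 fold change 4.24, SE 1.13, adjusted p = 0.0649 in edgeR's exact test). Without E5386 and E5642 its value was 0.42 (SE 0.54). *Sik1* (0.19, SE 0.10) and *Gadd45a* (0.19, SE 0.14) had an adjusted p of 1, and came to 0.15 (SE 0.11) and 0.20 (SE 0.18) without E5386 and E5642. E5386 and E5642 were highest for 5 of the 16, *Myog*, *Myod1*, *Sln*, *Gdf5* and *Ankrd1*. Of these only *Sln* was tested, and the share over all genes tested was 3.08%. *Myog* and *Myod1*, singled out after their values were seen because they encode factors that bind E-boxes, did not pass the filter. *Myog* had 22 and 43 counts in E5386 and E5642 and 0 to 8 in the other 6 mice. *Myod1* had 23 and 26 counts, and 0 to 4 in the other 6.

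Atrophy and FoxO genes (20 of 23 tested) had a median of 0.02, with and without E5386 and E5642. *Fbxo40*, known as a ubiquitin ligase adaptor of muscle, was at 6.40 and 8.92 CPM in E5386 and E5642. In the other 6 mice *Fbxo40* was at 2.48 to 3.38 CPM (log2 fold change 0.89, SE 0.32, adjusted p = 0.701 in edgeR's exact test). Without E5386 and E5642 it was 0.12 (SE 0.19). *Foxo3*, a factor that drives the ligase genes in wasting muscle (-0.18, SE 0.08), and *Stub1* (-0.15, SE 0.08) had an adjusted p of 1, and stood at -0.16 (SE 0.10) and -0.08 (SE 0.10) without E5386 and E5642. E5386 and E5642 were highest for 5 of the 23, namely *Fbxo40*, *Eif4ebp1*, *Mstn* and the *Trim63* relatives *Trim54* and *Trim55*. *Mstn*, *Trim54* and *Trim55* were not tested, and the share over all genes tested was 3.08%. *Trim54*, chosen after its values were seen as the closest counterpart, had 56 and 94 counts in E5386 and E5642 and 0 to 5 in the other 6.

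Developmental sarcomere partners (4 of 5 tested) had a median of 0.19, which was -0.08 without E5386 and E5642. *Tnnt1*, the slow troponin T, was at 7.06 and 6.14 CPM in E5386 and E5642 and at 0.520 to 0.997 CPM elsewhere. As a slow form, like *Myh7* among the adult muscle genes, it is not taken as a developmental readout. *Tnnt1* had the largest log2 fold change of this list (2.25, SE 0.74, adjusted p = 0.338 in edgeR's exact test). *Myl4* (0.33, SE 0.23) and *Tnnt2* (-0.09, SE 0.20) had an adjusted p of 1. Without E5386 and E5642 the 3 genes were at -0.14 (SE 0.33), -0.02 (SE 0.25) and -0.21 (SE 0.26). Neuronal nicotinic subunits, which form the receptors of the cord itself, had a median of -0.10 (9 of 11 tested), and of -0.05 without E5386 and E5642. *Chrna4* had a log2 fold change of -0.32 (SE 0.09, adjusted p = 0.504), *Chrna7* of -0.24 (SE 0.14, adjusted p = 1) and *Chrnb2* of -0.10 (SE 0.07, adjusted p = 1) in edgeR's exact test, and none of the 11 had E5386 and E5642 as its highest mice. Without these 2 mice the values were -0.26 (SE 0.12), -0.06 (SE 0.15) and -0.04 (SE 0.09).

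Genes with the most similar profiles were found for the 6 genes that passed the filter, as the smallest root mean square difference between profiles of log2(CPM + 1), each centered on its own mean, over 8 mice. For *Trim63* these were *Myom2* (0.358), *Mylk2* (0.370) and *Hspb7* (0.401), known as genes of fast fibers, muscle myosin phosphorylation and the sarcomere. *Myom2* read 5.03 CPM in E5386 and 22.4 CPM in E5642, a ratio of 4.45, and *Mylk2* 4.46 and 17.3 CPM. *Chrna1* had *Pvalb* (0.150), *Klhl40* (0.152) and *Lrrc39* (0.154), of which *Klhl40* encodes a protein that stabilizes thin filaments. For *Musk* they were *Kctd12b* (0.0627), *Gm13861* (0.0680) and *Asb14* (0.0852). *Asb14* read 0.539 to 0.635 CPM in the *Ager*-deleted mice and 1.48, 1.73, 1.14 and 0.924 CPM in the controls. Every control was thus above every *Ager*-deleted mouse, as for 1.91% of all genes tested. Because *Asb14* was picked for its likeness to *Musk*, this follows from the choice and nothing is read from it.

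*Fbxo32* was nearest to *Fam160a1* (0.128), *Hmgb1-ps8* (0.144) and *Sox2* (0.153), the last a factor of neural progenitors and glia at 32.1 to 56.9 CPM in the *Ager*-deleted mice and 49.0 to 64.5 CPM in the controls. *Chrnb1* was nearest to *Lmod1* (0.0674), which encodes a leiomodin of smooth muscle, *Acaca* (0.0744) and *Scd3* (0.0817), of which the last pair encode enzymes of fatty acid synthesis. *Myh3* was nearest to *Clk4* (0.0337), *Gm26803* (0.0456) and *Gm16209* (0.0473). Every such likeness is over the same 8 libraries and their depths, and is a description only.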

How the data were processed

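RNA-seq data from 8 male mouse lumbar spinal cords (4 per genotype, grouped by the genotype in the labels) were analysed. The authors deposited raw counts of read pairs per gene, made with STAR 2.7.3a on mm10 and featureCounts in Subread 1.6.3 on GENCODE M25, from poly(A)-selected stranded libraries. They also deposited log2 TMM-normalized CPM, which was used only as a check and was recomputed from the counts within 4.78e-06. Submitters' processing notes further name Trimmomatic 0.36, SAMtools and edgeR 3.26.8.

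Counts were filtered with filterByExpr (minimum 10 counts, 19470 genes kept), TMM-normalized, and tested in edgeR 4.0.16 (R 4.3.3) with exactTest (estimateDisp, no design matrix) and with glmQLFit and glmQLFTest, which also gave the standard errors. Adjusted p-values follow Benjamini and Hochberg over all genes tested (threshold 0.05). Log2 fold changes are of controls over *Ager*-deleted mice. Exon lengths were matched by symbol to GENCODE M21. The tests were first run on simulated data. Alternatives were RLE factors, library size only, no filter, common and tagwise dispersions, DESeq2 1.42.0, each mouse left out, and both muscle-rich controls left out.

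Members and lists were chosen with earlier results of these data known. Named genes are the 9 members, *Ager*, *Ckm*, *Acta1*, *Myh1*, *Myh2*, *Myh4*, *Myh7* and *Chrne*, in each list the genes called by the exact test and the 3 with the smallest p, and for each tested member the 3 genes with the most similar profile. Other genes were named after their values were seen. The tissue labels name separate mice, so p-values measure the spread between mice.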

Additional observations from a re-analysis of the deposited data

Results flagged for a closer look

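Among 33 groups of 4 mice (17 genes, each genotype), 2 had a mouse farther from the others than Dixon's test allows, where chance flags about 1 group in 20. *Chrng* was one, in the controls, with E5642 at 10 counts (0.309 CPM), so that on the log2(CPM + 1) scale its gap to the next control filled 0.911 of the group's range. *Myh8* in the *Ager*-deleted mice was the other, with E5248 at 6 counts (0.169 CPM) and a gap of 0.972 of the range on the same scale. The exact 95% interval of *Myh8* in E5248 (0.0621 to 0.369 CPM) overlapped those of the other 3 *Ager*-deleted mice (2 counts each). The rate of 1 in 20 does not hold for counts this low, and the groups share the same mice. Nothing is read from the number of groups flagged.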

How the results depend on the processing

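No paired analysis was possible because the columns carry mouse identifiers and no replicate numbers shared between genotypes. The exact test called 14 genes, 78 with common and tagwise dispersions, 25 with DESeq2, 67 without E5386 and E5642, and 3 (without E5231) to 98 (without E6578) with each mouse left out. The quasi-likelihood test called 1, DESeq2 in its place 25, and 1 to 2 with each mouse left out. Over the 6 pathway lists the exact test called 3 genes, 6 with library size only, 20 with common and tagwise dispersions, 0 without E5386 and E5642, and 0 to 23 with each mouse left out. The quasi-likelihood test called 0 of them in every such fit, and DESeq2 called 4. *Chrna1* reversed to -0.14 without E5386 and E5642. The *Ager* difference was 0.43 to 0.59 with each mouse left out, each with an exact permutation p of 0.0571, the smallest possible there. *Fbxo32* relative to *Ckm* in E5642 over E5386 went from 0.802 to 1.22 on the excess. Log2 fold changes over 14 alternatives ran from 1.07 to 1.47 for *Musk* (called in 7), 0.70 to 5.01 for *Trim63* (called in 4, with common and tagwise dispersions and without E5386, E6578 or E6732), 0.32 to 0.65 for *Fbxo32* (called in 1, without E6578), 0.26 to 0.71 for *Myh3* and 0.23 to 0.46 for *Chrnb1* (called in none). *Musk* lost its call with no filter, with DESeq2, without both E5386 and E5642, and without any single one of E1776, E5231, E5568 and E5642. The cause was not tested. *Chrnd*, *Chrng* and *Myh8*, with at most 24 counts, are limited by depth.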

Other observations

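The adult muscle genes did not differ by one factor between the muscle-rich controls. *Myh2*, the myosin of fast oxidative fibers, had 1790 counts in E5386 and 615 in E5642 (ratio of CPM 0.388, exact 95% interval 0.353 to 0.425), and *Mb*, which encodes the oxygen store myoglobin, had 2097 and 1168 (0.629, 0.585 to 0.676). The 3 highest ratios were those of *Actn3* at 2.68 (2.49 to 2.89), the muscle enolase *Eno3* at 2.28 (2.11 to 2.46) and *Myh1* at 2.25 (2.16 to 2.34). *Myh4*, the myosin of the fastest glycolytic fibers (1.13, 1.07 to 1.18), and the slow myosin *Myh7* (1.29, 1.13 to 1.47) lay between, so the ratios did not follow fiber type throughout. These genes were chosen after their values were seen, and the intervals compare 2 libraries.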
